A study of Mus musculus with 20 samples.

Results

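Gpx7, Bex1 and Ccni are 3 genes measured in LSK cells, the lineage-negative, cKit-positive and Sca1-positive fraction of mouse bone marrow that holds the haematopoietic stem cells and multipotent progenitors. The 3 were picked from 46078 gene IDs because their mean RNA level lay on opposite sides of wild type in Idh2R172K and in Tet2 knockout mice, so the values of those 2 groups against wild type, and against each other, chose the genes and are given as description with no test. All 3 had a mean of at least 1 TPM, a transcript abundance per gene length scaled to 1000000 in each library, and were among the 14176 genes carried into the tests. Mice were C57Bl/6J aged 3 to 4 months, and 5 groups were measured by total RNA sequencing, each with 4 libraries that were pools of 2 mice. Idh2R172K mice carried Idh2LSL-R172K/+ with Vav-Cre. The Tet2KO group was Tet2-/-, with no Cre in its label and no statement of which exons were removed. Idh2R140Q mice carried Idh2LSL-R140Q/+ with Vav-Cre, and Idh1R132H mice carried Idh1LSL-R132H/+ with Vav-Cre. Wild type (WT) mice were +/+ with Vav-Cre, a recombinase driven by a promoter of blood-forming cells. Cre and the loss of Tet2 therefore cannot be told apart in any comparison of Tet2KO with the other groups.

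TET2 is an enzyme that oxidises methylated cytosine at CpG sites in DNA and needs 2-oxoglutarate as its co-substrate. The mutant forms of IDH1 and IDH2 turn 2-oxoglutarate into 2-hydroxyglutarate, which competes with it in TET2 and in other enzymes of the same class, and mutations of TET2, IDH1 and IDH2 are known from myeloid leukaemia. Gpx7 encodes a member of the glutathione peroxidase family that lies in the endoplasmic reticulum, lacks selenocysteine and passes oxidising equivalents from peroxide to protein disulphide isomerases. Bex1 encodes a small adaptor protein of the BEX and TCEAL family, most of whose genes lie side by side on the X chromosome. Ccni encodes cyclin I, an atypical cyclin whose RNA is not known for strong swings through the cell cycle.

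The promoters are shown because TET2 acts on CpG sites. Gpx7 and Bex1 moved together in the values that chose them, and a link of these levels to the promoters was not tested. Each sequence spans 250 bases before to 50 after the RefSeq gene start (GRCm38.p6, the mm10 build), reads 5′ to 3′ on the minus strand on which all 3 genes lie, and has its CG dinucleotides in capitals. They lie at chr4:108406664-108406963 for Gpx7, chrX:136215464-136215763 for Bex1 and chr5:93206446-93206745 for Ccni.
Gpx7: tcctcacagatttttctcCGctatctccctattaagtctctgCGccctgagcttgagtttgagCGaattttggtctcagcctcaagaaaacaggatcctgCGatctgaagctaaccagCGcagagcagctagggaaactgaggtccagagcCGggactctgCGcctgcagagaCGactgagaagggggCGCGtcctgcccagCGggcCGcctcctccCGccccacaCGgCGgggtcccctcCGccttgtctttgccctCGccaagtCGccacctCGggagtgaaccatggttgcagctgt
Bex1: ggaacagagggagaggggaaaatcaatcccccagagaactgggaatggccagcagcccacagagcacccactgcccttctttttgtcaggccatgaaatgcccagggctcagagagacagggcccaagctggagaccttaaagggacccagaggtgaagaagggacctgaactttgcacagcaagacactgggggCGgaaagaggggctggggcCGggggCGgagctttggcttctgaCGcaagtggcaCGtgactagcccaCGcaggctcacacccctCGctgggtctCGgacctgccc
Ccni: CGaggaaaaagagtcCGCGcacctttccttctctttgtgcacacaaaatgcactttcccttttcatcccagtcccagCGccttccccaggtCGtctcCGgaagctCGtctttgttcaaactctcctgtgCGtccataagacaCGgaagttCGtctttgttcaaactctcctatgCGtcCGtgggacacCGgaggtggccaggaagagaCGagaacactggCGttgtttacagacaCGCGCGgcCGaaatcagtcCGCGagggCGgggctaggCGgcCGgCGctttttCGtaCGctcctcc
The Ccni window held 27 CpG sites, the Gpx7 window 19 and the Bex1 window 8, against a median of 7 over 32851 mouse promoters of the same length. Of those promoters, 84.5% held fewer CpG sites than Ccni, 71.9% fewer than Gpx7 and 51.4% fewer than Bex1. The motif GGGCGG, searched on both strands like all motifs here, occurred once each for Gpx7 and Ccni and at 2 places for Bex1, and 35.7% of promoters hold it. CACGTG occurred once, in the Bex1 window, and is held by 7.15% of promoters. None of the 3 windows held the letters of the TATA box TATAAA (in 13.6% of promoters), of the CCAAT box (37.4%), of the antioxidant response core TGACNNNGC (12.4%) or of the GATA motif AGATAA (11.2%). DNA methylation was not measured here, and the RefSeq start of Gpx7 lies 248 bases inside the start of its GENCODE gene model.

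The libraries held 35.15 to 45.01 M assigned reads (M, 1000000 reads), with 35.15 to 37.97 M in Tet2KO and 36.95 to 43.19 M in WT. Gm23935, an rRNA-like gene, made up 7.55 to 20.0% of TPM per library (median 11.9%). It was lowest at 7.55 to 8.13% in the number 4 libraries of Idh2R172K, Idh2R140Q, Idh1R132H and WT, and was highest in Tet2KO replicate 2. Each group held 2 libraries with female and 2 with male sex-linked RNA. Of the sort and progenitor markers, Kit averaged 590 TPM in Idh2R172K, 330 TPM in Tet2KO and 391 TPM in WT, and Cd34 averaged 582 TPM in Idh2R172K, 479 TPM in Tet2KO and 493 TPM in WT. The markers did not share 1 direction. Ly6a, which encodes Sca1, had log2 differences of TPM + 1 of -0.36 for Idh2R172K minus WT and 0.79 for Tet2KO minus WT.

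Gpx7 (ENSMUSG00000028597, chromosome 4, 108400390 to 108406961, mm10) was low in Idh2R172K and high in Tet2KO. It stood at 2.49, 2.55, 2.48 and 1.56 TPM in Idh2R172K libraries 1 to 4, at 13.47, 13.81, 15.89 and 15.00 TPM in Tet2KO, and at 10.30, 11.41, 10.15 and 8.23 TPM in WT. Neither mutant group overlapped WT, and the highest Idh2R172K library lay far below the lowest WT library. The means were 2.27 TPM (SD 0.473, n = 4) in Idh2R172K, 14.5 TPM (SD 1.11, n = 4) in Tet2KO and 10.0 TPM (SD 1.32, n = 4) in WT, so Idh2R172K held 22.6% of the WT mean and Tet2KO 1.45 times it. As log2 differences of TPM + 1 ± the fitted standard error (SE), these were -1.76 ± 0.13 for Idh2R172K minus WT and 0.50 ± 0.13 for Tet2KO minus WT. Idh2R172K minus Tet2KO came to -2.26. Among all 14176 genes, ordered by log2 difference, Gpx7 was number 161 from the lowest in Idh2R172K minus WT and number 1615 from the highest in Tet2KO minus WT. The values rest on 24.0 to 44.0 reads per library in Idh2R172K and on 191 to 275 in Tet2KO. No 50-base word of the Gpx7 transcripts occurs in the annotated transcripts of another gene.

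Bex1 (ENSMUSG00000050071, X chromosome, 136213972 to 136215513) followed the same order. Its levels were 2.09, 3.25, 2.49 and 2.19 TPM in Idh2R172K, 14.87, 20.19, 20.16 and 17.26 TPM in Tet2KO, and 12.09, 10.46, 11.54 and 8.40 TPM in WT. Again no library of either mutant group fell inside the WT range. Bex1 averaged 2.51 TPM (SD 0.526, n = 4) in Idh2R172K, 18.1 TPM (SD 2.57, n = 4) in Tet2KO and 10.6 TPM (SD 1.63, n = 4) in WT, which is 23.6% of the WT mean in Idh2R172K and 1.71 times it in Tet2KO. The log2 differences were -1.73 ± 0.17 for Idh2R172K minus WT, 0.72 ± 0.17 for Tet2KO minus WT and -2.45 for Idh2R172K minus Tet2KO. That last value was number 49 from the lowest of all genes. Of the 1268 different 50-base words in the Bex1 transcripts, 392 (30.9%) also occur in other genes, chiefly Bex4, Tceal7 and Bex2, so the split of reads between these paralogs is uncertain.

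**Figure D1:**
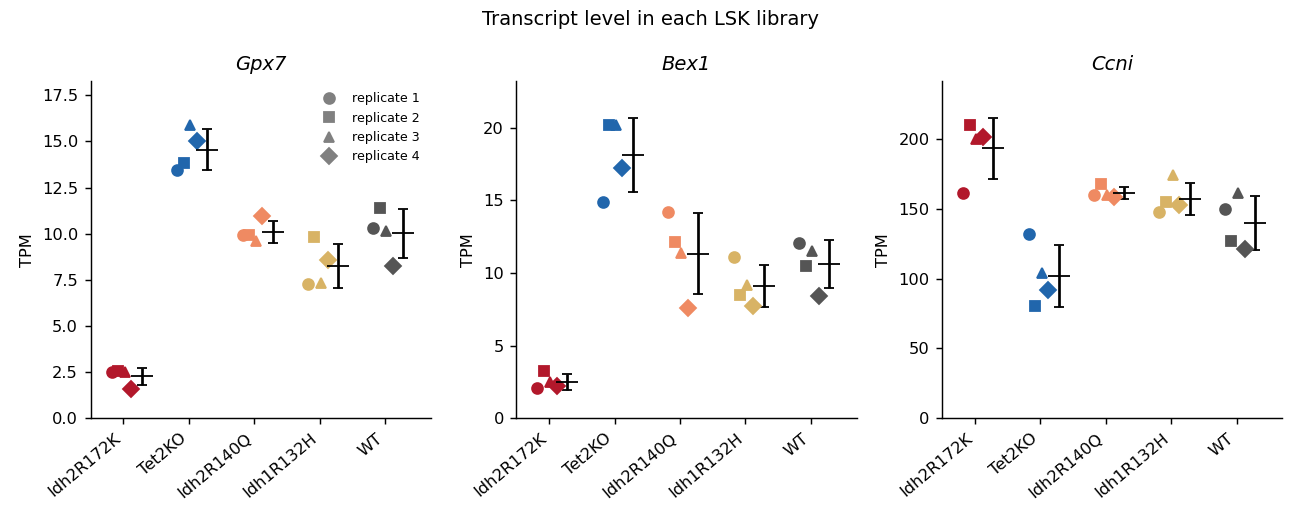
Level of Gpx7, Bex1 and Ccni in TPM (vertical axes, each starting at 0) in each of the 20 LSK libraries, by group, with the marker shape giving the replicate number and the bar the mean ± SD of 4 libraries. Gpx7 and Bex1 are lowest in Idh2R172K and highest in Tet2KO without overlap with WT, while Ccni is highest in Idh2R172K and lowest in Tet2KO, where replicate 1 lies within the WT range.

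Ccni (ENSMUSG00000063015, chromosome 5, 93181933 to 93206495) was more abundant than Gpx7 and Bex1 and went the other way by a smaller ratio. It was measured at 161.65, 210.08, 199.96 and 201.55 TPM in Idh2R172K, 131.99, 80.40, 104.10 and 91.85 TPM in Tet2KO, and 150.02, 126.87, 161.40 and 121.03 TPM in WT. Idh2R172K did not overlap WT, but by a small margin, since its replicate 1 at 161.65 TPM lay just above WT replicate 3 at 161.40 TPM. Tet2KO overlapped WT, with replicate 1 above WT replicates 2 and 4. The means were 193 TPM (SD 21.6, n = 4) in Idh2R172K, 102 TPM (SD 22.2, n = 4) in Tet2KO and 140 TPM (SD 19.1, n = 4) in WT. On the log2 scale Idh2R172K minus WT was 0.47 ± 0.13, Tet2KO minus WT was -0.46 ± 0.13 and Idh2R172K minus Tet2KO was 0.93. The lowest Tet2KO library for Ccni, replicate 2, is the one with the most Gm23935, and without it the Tet2KO difference was -0.36. Without that library and the number 4 libraries the difference was -0.31, and Idh2R172K minus WT was 0.38. Whether the Gm23935 share has a part in the Ccni values was not tested. Ccni shares 477 of its 3348 words of 50 bases (14.2%) with the gene models Gm8983 and Gm6352, and its count is uncertain to that extent.

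The Idh2R140Q and Idh1R132H libraries were not used in choosing the genes, and here the levels could be tested, although the WT libraries had a part in the choice. Gpx7 stood at 9.90, 9.93, 9.61 and 10.94 TPM in Idh2R140Q and at 7.29, 9.80, 7.31 and 8.56 TPM in Idh1R132H. Bex1 stood at 14.22, 12.15, 11.35 and 7.56 TPM in Idh2R140Q and at 11.08, 8.46, 9.19 and 7.73 TPM in Idh1R132H. Both groups overlapped WT for both genes, and the number 4 library was the lowest for Bex1 in Idh2R140Q, in Idh1R132H and in WT. Ccni was at 159.63, 167.56, 159.84 and 158.51 TPM in Idh2R140Q and at 147.83, 155.21, 174.00 and 152.48 TPM in Idh1R132H, overlapping WT in both.

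None of the 3 genes passed the test in these groups. The test was limma, a linear model with variances shared across genes, 2-sided, with the Benjamini-Hochberg adjustment across the 14176 genes and 0.05 as the threshold. For Gpx7, Idh2R140Q minus WT was 0.02 ± 0.13 (95% interval -0.26 to 0.29, limma adjusted p = 0.998). Idh1R132H minus WT was -0.26 ± 0.13 (interval -0.53 to 0.02, limma adjusted p = 1.00). The intervals leave room for a Gpx7 difference of up to that size in Idh1R132H, and they do not reach the -1.76 seen in Idh2R172K.

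For Bex1 the Idh2R140Q minus WT difference was 0.06 ± 0.17 (interval -0.30 to 0.43), and Idh1R132H minus WT was -0.20 (interval -0.56 to 0.16). For Ccni the differences were 0.22 in Idh2R140Q (interval -0.05 to 0.48) and 0.18 in Idh1R132H (interval -0.09 to 0.45). Between Idh2R140Q and Idh1R132H, a comparison free of the choice, Gpx7 differed by 0.27 ± 0.13 (interval -0.0010 to 0.54), Bex1 by 0.26 (interval -0.10 to 0.63) and Ccni by 0.04 (interval -0.23 to 0.31), and none passed. The limma adjusted p of the 9 values was 0.998 or above. The background in these comparisons was as low. In limma no gene passed in Idh2R140Q minus WT (0.0%, with 407 genes at an unadjusted p under 0.05), 1 gene passed in Idh1R132H minus WT (0.00705%, 229 genes unadjusted) and 1 between Idh2R140Q and Idh1R132H (0.00705%, 274 genes unadjusted).

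**Figure D2:**
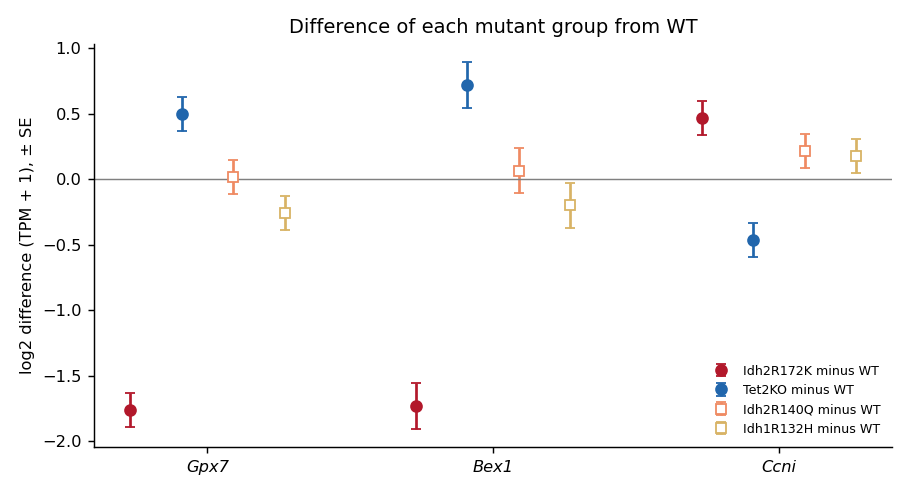
Log2 difference of TPM + 1 from WT (vertical axis, ± SE of the fit over all 20 libraries) for Gpx7, Bex1 and Ccni in each mutant group. Filled circles are the 2 comparisons that chose the genes, and open squares are the comparisons with Idh2R140Q and Idh1R132H, whose values run from -0.26 to 0.22 and did not pass the test.

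In order of mean level, Gpx7 was highest in Tet2KO, followed by Idh2R140Q, WT, Idh1R132H and Idh2R172K, and Bex1 had the same order. The 3 middle groups overlapped one another for both genes, while the Tet2KO and Idh2R172K libraries lay outside all of them. For Ccni the order was Idh2R172K, Idh2R140Q, Idh1R132H, WT and Tet2KO, and every neighbouring pair of groups in it overlapped.

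The choice itself can be placed among all genes. In Idh2R172K minus WT 15.4% of the genes tested passed limma (8.03% higher and 7.33% lower), and in Tet2KO minus WT 7.05% passed (5.02% higher and 2.02% lower). Both comparisons use the same 4 WT libraries. Of 322 genes that passed in both, 291 had the same direction and 31 had opposite directions, and Gpx7, Bex1 and Ccni lie in the 31 because they were chosen for it, so that no test of them is read from this. Of those 31, 30 were lower in Idh2R172K and higher in Tet2KO, and Ccni was the single gene of the other kind. Ordered by the smaller of the 2 log2 differences, Bex1 was number 8, Gpx7 number 19 and Ccni number 20. Leaving out 1 library changed the 30 to 9 without WT replicate 3, 11 without Tet2KO replicate 4, 12 without WT replicate 1, 14 without WT replicate 2 and 60 without Tet2KO replicate 2. The single gene became 8 without Tet2KO replicate 2, 6 without Tet2KO replicate 1 or 3, 3 without Idh2R172K replicate 1, and 0 without Idh2R172K replicate 2 or 4, Tet2KO replicate 4 or WT replicate 1, 2 or 3. With median-of-ratios scaling the counts were 70 and 25. The set of 31 also holds Ly6a, which encodes the Sca1 antigen used in the sort, at 130 TPM (SD 14.4, n = 4) in Idh2R172K, 292 TPM (SD 39.1, n = 4) in Tet2KO and 168 TPM (SD 18.6, n = 4) in WT.

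Of 11 other BEX and TCEAL genes 8 were abundant enough to test, and all 8 were lower in Idh2R172K than in Tet2KO, with a median log2 difference of -0.91, against 0.06 over all genes tested and a background of 26.8% called (14.9% higher and 11.9% lower). These 8 calls were made whichever Idh2R172K or Tet2KO library was left out. Against WT, 5 were lower in Idh2R172K (Bex2, Bex3, Bex4, Tceal5 and Tceal8), beside 7.33% of all genes. In Tet2KO 5 were higher than in WT (Bex2, Bex3, Bex6, Tceal5 and Tceal8), beside 5.02% of all genes. The list medians were -0.49 and 0.42, with medians over all genes of 0.11 and 0.02. No member of the list passed in Idh2R140Q or Idh1R132H against WT. The list was drawn up with earlier results known and is no independent evidence.

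Bex4, a close paralog of Bex1, had the largest difference of the list. Its levels were 1.31, 1.08, 1.86 and 0.50 TPM in Idh2R172K, 11.29, 16.70, 14.18 and 13.00 TPM in Tet2KO, and 11.39, 9.33, 13.14 and 8.08 TPM in WT. Idh2R172K was far below the other groups, and Tet2KO overlapped WT. Bex4 fell by 2.41 on the log2 scale in Idh2R172K against WT (SE 0.20, limma adjusted p = 7.9e-08), and its Tet2KO minus WT difference was 0.37 ± 0.20 (limma adjusted p = 0.233). The value is uncertain, since 49.7% of its 50-base words also occur in Bex1 and other models.

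Bex2 was at 1.29, 1.45, 1.00 and 1.21 TPM in Idh2R172K, 6.54, 7.24, 6.23 and 6.51 TPM in Tet2KO, and 4.60, 4.40, 3.48 and 4.05 TPM in WT, with no overlap of either group with WT. It fell by 1.20 ± 0.16 in Idh2R172K (limma adjusted p = 3.53e-05) and rose by 0.58 ± 0.16 in Tet2KO (limma adjusted p = 0.0404). Bex3, the most abundant of the X-linked relatives and known as an interactor of the neurotrophin receptor p75NTR, stood at 206.4, 193.4, 194.1 and 202.7 TPM in Idh2R172K, 316.1, 392.2, 349.0 and 383.3 TPM in Tet2KO, and 248.5, 250.3, 257.2 and 299.3 TPM in WT. Its groups did not overlap either, and the changes were -0.40 ± 0.09 in Idh2R172K (limma adjusted p = 0.00616) and 0.45 ± 0.09 in Tet2KO (limma adjusted p = 0.0121). Of the 50-base words of Bex2, 22.2% also occur in Bex3 or Bex1, and of those of Bex3, 12.3% occur in Bex2. Both levels are uncertain to that extent.

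Tceal5 and Tceal8 belong to the transcription elongation factor A-like branch of the family. Tceal5 stood at 0.58, 0.58, 1.04 and 0.53 TPM in Idh2R172K, 3.02, 3.38, 3.97 and 4.59 TPM in Tet2KO, and 2.45, 1.49, 2.19 and 1.45 TPM in WT, and neither mutant group overlapped WT. It fell by 0.78 ± 0.18 in Idh2R172K (limma adjusted p = 0.00503) and rose by 0.72 ± 0.18 in Tet2KO (limma adjusted p = 0.0242). Of the 50-base words of Tceal5, 25.4% also occur in Tceal6 or Tceal3, which leaves its level uncertain. Tceal8 changed by -0.47 ± 0.11 in Idh2R172K (limma adjusted p = 0.00523) and by 0.39 ± 0.11 in Tet2KO (limma adjusted p = 0.0346). The Idh2R172K calls of these 5 genes were kept without any single library. Of the Tet2KO calls, that of Bex3 was kept likewise, while that of Bex2 ended without Tet2KO replicate 1, 2 or 4 or any WT library, that of Tceal5 without Tet2KO replicate 4 or WT replicate 2, 3 or 4, and that of Tceal8 without Tet2KO replicate 3 or 4 or WT replicate 1, 2 or 3. The count of 5 higher in Tet2KO became 1 without Tet2KO replicate 4, WT replicate 2 or WT replicate 3, 2 without WT replicate 1, and 3 without Tet2KO replicate 2 or WT replicate 4.

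**Figure D3:**
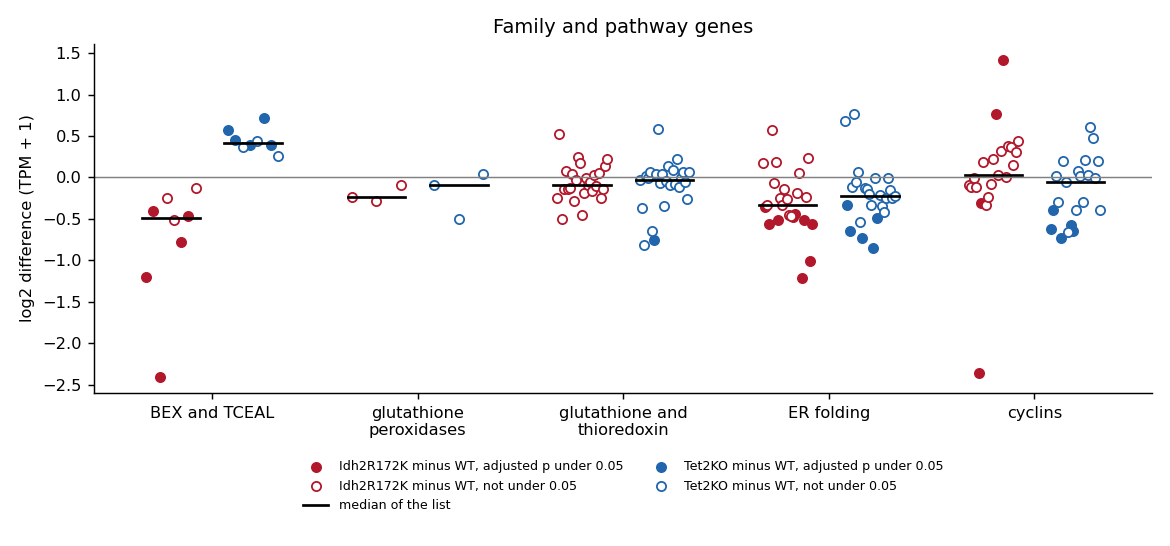
Log2 difference of TPM + 1 (vertical axis) of each tested gene in 5 family and pathway lists, for Idh2R172K minus WT and Tet2KO minus WT, with filled points passing limma at an adjusted p under 0.05 and bars at the list medians. The 8 BEX and TCEAL genes lie below 0 in Idh2R172K (median -0.49) and above 0 in Tet2KO (median 0.42), and the ER folding genes lie mostly below 0 in both (medians -0.33 and -0.22).

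Of 7 other glutathione peroxidase genes 3 could be tested. None passed in Idh2R172K minus WT, in Tet2KO minus WT or in Idh2R172K minus Tet2KO, beside 15.4%, 7.05% and 26.8% of all genes. So few genes cannot show how the family moved. Library weights called 1 lower in Idh2R172K minus WT and 2 lower in Tet2KO minus WT. With the number 4 libraries and Tet2KO replicate 2 omitted, 1 was lower in each. Quantile scaling called 1 lower in Tet2KO minus WT. Gpx1, the abundant cytosolic peroxidase, was at 3274, 2985, 3182 and 2435 TPM in Idh2R172K, 3063, 3884, 2958 and 3153 TPM in Tet2KO, and 3767, 3611, 3510 and 3003 TPM in WT. Its differences from WT were -0.23 ± 0.13 in Idh2R172K (limma adjusted p = 0.265) and -0.09 ± 0.13 in Tet2KO (limma adjusted p = 0.681). Gpx4, which reduces lipid peroxides, differed from WT by -0.09 in Idh2R172K and 0.05 in Tet2KO. Gpx8, the other glutathione peroxidase of the endoplasmic reticulum, lay at 0.19 to 1.07 TPM in all 20 libraries and was too low to test.

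In the list of glutathione, thioredoxin and peroxide metabolism 25 of 27 genes were tested. In Idh2R172K minus WT none passed, beside 15.4% of all genes. In Tet2KO minus WT, beside 7.05% of all genes, Gsr, glutathione reductase, alone passed. It was at 70.16, 42.91, 59.09 and 55.41 TPM in Tet2KO and 106.2, 69.72, 139.7 and 78.79 TPM in WT, with Tet2KO replicate 1 above WT replicate 2. Gsr fell by 0.75 ± 0.22 in Tet2KO (limma adjusted p = 0.0498), and the call ended without Tet2KO replicate 2, 3 or 4 or WT replicate 1 or 3. Between the mutants Gsr was higher in Idh2R172K (0.79, limma adjusted p = 0.0159) and Glrx3 lower (-0.20, limma adjusted p = 0.0431), beside 26.8% of all genes. These calls ended in 5 of 20 alternatives for Gsr and 12 of 20 for Glrx3. Library weights gave 2 higher and 7 lower in Idh2R172K minus WT, and 6 higher and 4 lower in Tet2KO minus WT. With the number 4 libraries and Tet2KO replicate 2 omitted, these were 2 and 5, and 3 and 1. 

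Genes of oxidative folding and chaperones in the endoplasmic reticulum, where the Gpx7 protein acts, numbered 24, and all were tested. Of these, 9 were lower in Idh2R172K (list median -0.33) and 5 were lower in Tet2KO (list median -0.22), beside 7.33% and 2.02% of all genes called lower. None was called higher than WT, but with the number 4 library of every group and Tet2KO replicate 2 omitted, 4 were higher and 10 lower in Idh2R172K, and 2 higher and 1 lower in Tet2KO. Pdia5, a protein disulphide isomerase, was at 15.60, 16.70, 21.32 and 15.57 TPM in Idh2R172K, 30.66, 23.70, 34.67 and 34.72 TPM in Tet2KO, and 45.92, 30.95, 49.31 and 40.51 TPM in WT. The Idh2R172K libraries lay below all others, and the log2 change against WT was -1.21 ± 0.16 (limma adjusted p = 3.03e-05). In Tet2KO the Pdia5 difference from WT was -0.41 ± 0.16 (limma adjusted p = 0.116), and Idh2R172K minus Tet2KO was -0.80 ± 0.16 (limma adjusted p = 0.00193).

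Sdf2l1, a partner of the chaperone BiP, stood at 112.4, 128.5, 153.3 and 80.09 TPM in Idh2R172K and 236.1, 214.7, 248.5 and 233.2 TPM in WT. It fell by 1.01 ± 0.17 in Idh2R172K (limma adjusted p = 0.000313) and differed by -0.24 in Tet2KO, which did not pass. Pdia6 fell by 0.52 and Xbp1, a transcription factor of the unfolded protein response, by 0.56 in Idh2R172K (limma adjusted p = 0.00115 and 0.00567). The 4 Idh2R172K calls of Pdia5, Sdf2l1, Pdia6 and Xbp1 were kept in every alternative run. P4hb, the founding protein disulphide isomerase and named for its place beside Gpx7 after its values were seen, fell in both groups, by 0.44 ± 0.11 in Idh2R172K (limma adjusted p = 0.0116) and by 0.49 ± 0.11 in Tet2KO (limma adjusted p = 0.0190, lost without WT replicate 3). The count of 5 lower in Tet2KO became 0 without WT replicate 3, 1 without Tet2KO replicate 4, 2 without Tet2KO replicate 2 or WT replicate 1, and 2 with 1 called higher without WT replicate 4.

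Of 25 other cyclin genes 21 were tested. In Idh2R172K minus WT 2 were higher and 2 lower, with a list median of 0.03 and a background of 15.4% called. In Tet2KO minus WT 5 were lower, with a median of -0.06 and a background of 7.05% called (2.02% lower). Between the mutants 8 were higher in Idh2R172K than in Tet2KO and 2 lower, with a median of 0.25 beside 0.06 over all genes and a background of 26.8% called. These directions depended on the libraries used. With the number 4 library of every group and Tet2KO replicate 2 omitted, 6 were higher and 2 lower in Idh2R172K minus WT, 4 higher and 1 lower in Tet2KO minus WT, and 2 higher and 5 lower between the mutants. The fit of the 2 mutant groups alone called 1 higher and 2 lower, and library weights gave 4 higher and 7 lower in Tet2KO minus WT.

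Ccnd1, the cyclin D1 gene that drives entry into S phase, was at 0.70, 0.81, 1.01 and 0.90 TPM in Idh2R172K, 5.00, 6.03, 4.56 and 3.57 TPM in Tet2KO, and 7.52, 10.14, 8.02 and 8.39 TPM in WT. All Idh2R172K libraries were lowest and the Tet2KO libraries lay between them and WT. Ccnd1 fell by 2.35 ± 0.20 in Idh2R172K (limma adjusted p = 1.61e-07) and by 0.73 ± 0.20 in Tet2KO (limma adjusted p = 0.0387), the second call ending without Tet2KO replicate 3 or 4 or any WT library. Ccnjl, cyclin J-like, went up in Idh2R172K, at 15.12, 19.03, 12.41 and 20.07 TPM, against 6.27, 5.29, 5.89 and 4.67 TPM in WT, a log2 change of 1.42 ± 0.17 (limma adjusted p = 9.51e-06). Its Tet2KO difference was 0.22 ± 0.17 and did not pass. For Ccnd2, Idh2R172K minus Tet2KO was -0.51 ± 0.10 (limma adjusted p = 0.00199), the other way from Ccni, and this call was kept in every alternative. Idh2R172K minus WT was -0.31 for Ccnd2 (limma adjusted p = 0.0486), a call that ended in 15 of 20 alternatives. Its Tet2KO minus WT difference of 0.20 did not pass.

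Ccna2, the cyclin of S and G2 phase, was at 121.7, 74.42, 121.9 and 109.9 TPM in Tet2KO and 158.7, 134.9, 193.9 and 165.8 TPM in WT. It fell by 0.62 ± 0.14 in Tet2KO (limma adjusted p = 0.0187, lost without WT replicate 3), and differed by -0.09 in Idh2R172K. Ccng1 and Ccng2, the cyclins G, are close relatives of Ccni. Ccng1 was at 118.2, 105.9, 119.4 and 107.7 TPM in Idh2R172K, 98.73, 36.51, 94.78 and 82.62 TPM in Tet2KO, and 89.54, 98.09, 91.80 and 106.9 TPM in WT. Among the comparisons of Idh2R172K, Tet2KO and WT it passed in Idh2R172K minus Tet2KO alone, at 0.62 ± 0.21 (limma adjusted p = 0.0340), and that call ended without any 1 of the 4 Idh2R172K libraries. Tet2KO replicate 2 lay far below the other Tet2KO libraries, and without it the difference was 0.29.

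The count of 4 cyclins in Idh2R172K minus WT became 2 without Idh2R172K replicate 2 or 4 or WT replicate 1, 2 or 3. The 5 in Tet2KO minus WT became 1 without WT replicate 3 or 4, 2 without Tet2KO replicate 4 or WT replicate 1, and 3 without Tet2KO replicate 2 or WT replicate 2. The 10 cyclins called between the mutants became 6 without Idh2R172K replicate 2.

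The nearest genes on the chromosome were compared next, taking for each of the 3 genes the 5 tested protein-coding genes on either side. Around Gpx7, none of the 10 neighbours passed in either comparison with WT. Around Bex1, 6 of 10 were lower in Idh2R172K and 5 of 10 higher in Tet2KO, beside 7.33% and 5.02% of all genes, and 7 of the 10 are the BEX and TCEAL genes already described. Arxes2, 219 kb away, fell by 0.96 in Idh2R172K (limma adjusted p = 0.00219), and Tmsb15b1, which encodes a beta-thymosin 759 kb away, rose by 0.72 in Tet2KO (limma adjusted p = 0.0111).

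Around Ccni, 2010109A12Rik starts 0.023 kb from the Ccni start on the opposite strand and rose by 1.09 in Idh2R172K (limma adjusted p = 0.00082). Its Tet2KO difference was 0.47 and did not pass, so its sign there was the other way from that of Ccni. Ccng2, 60.8 kb away, stood at 90.34, 94.25, 77.09 and 136.6 TPM in Idh2R172K and 45.20, 55.07, 55.70 and 74.43 TPM in WT. All Idh2R172K libraries lay above all WT libraries, and Ccng2 rose by 0.77 ± 0.23 (limma adjusted p = 0.0304), a call that ended without Idh2R172K replicate 2 or 4 or WT replicate 1, 2 or 3. Anxa3, an annexin gene 3587 kb away, fell by 1.69 in Idh2R172K (limma adjusted p = 3.47e-06) and by 0.65 in Tet2KO (limma adjusted p = 0.0448), the second call ending without Tet2KO replicate 1, 3 or 4 or WT replicate 1, 3 or 4.

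**Figure D4:**
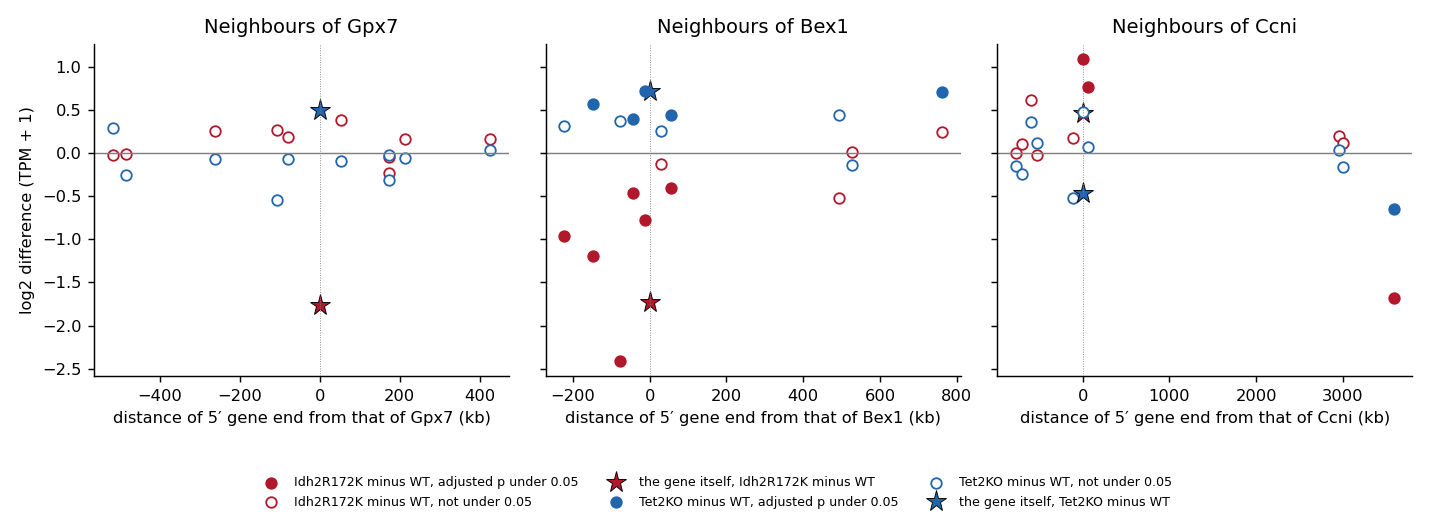
Log2 difference of TPM + 1 from WT (vertical axis) against the distance of a gene's 5′ end from that of Gpx7, Bex1 or Ccni in kb (horizontal axis). The genes are the 5 tested protein-coding genes on either side, in Idh2R172K and in Tet2KO. Filled points passed limma and stars mark the gene itself; 6 neighbours of Bex1 are filled below 0 in Idh2R172K and 5 above 0 in Tet2KO, and none is filled around Gpx7.

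Likeness of pattern was measured as Pearson's r on log2 TPM + 1 over the 20 libraries, which share the group differences that chose the genes, so the values are given as a description. Gpx7 and Bex1 had r = 0.95 with each other, and with Ccni r = -0.72 for Gpx7 and -0.73 for Bex1. The genes most like Gpx7 were Gstt2 (0.97), a glutathione S-transferase, Nr0b2 (0.97), an orphan nuclear receptor, H2-DMa (0.96), which helps load peptides on MHC class II, Insl6 (0.96) and Sult2b1 (0.96), a sulphotransferase. Gstt2 averaged 15.2 TPM in Idh2R172K, 63.2 TPM in Tet2KO and 52.5 TPM in WT. After Gpx7 the genes most like Bex1 were H2-DMa (0.95), Lyplal1 (0.95), Slc6a13 (0.94), a GABA transporter, and AW112010 (0.94). Ccni was most like Ei24 (0.96), Ubqln2 (0.95), a ubiquilin, Smo (0.94), the Hedgehog signal transducer, Gsk3b (0.94), a protein kinase, and Impad1 (0.93). Smo averaged 57.5 TPM in Idh2R172K, 27.8 TPM in Tet2KO and 39.1 TPM in WT.

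Over Idh2R172K, Tet2KO and WT, the summed levels of some marker lists had the order of Gpx7 and Bex1 or that of Ccni. The summed level of 9 red cell markers ran from 47.8 to 72.4 TPM in Idh2R172K, from 107 to 142 TPM in Tet2KO and from 74.7 to 110 TPM in WT. All 9 were tested, of which 2 were lower in Idh2R172K against WT, beside 7.33% of all genes. In Tet2KO against WT 5 were higher and 2 lower, beside 5.02% and 2.02% of all genes. In either direction 15.4% and 7.05% of all genes were called in these comparisons. The sum of 8 macrophage markers was 59.1 to 77.9 TPM in Idh2R172K, 141 to 164 TPM in Tet2KO and 85.3 to 100.8 TPM in WT, with 1 of the 8 lower in Idh2R172K and 2 higher in Tet2KO. Over these 3 groups the 2 sums have the order of Gpx7 and Bex1, but with Idh2R140Q and Idh1R132H added they do not. The median red cell sums were 87.1 TPM in Idh2R140Q, 89.6 TPM in Idh1R132H and 80.8 TPM in WT. For the macrophage markers the medians were 81.6, 84.3 and 95.6 TPM in the same groups. The 8 megakaryocyte and platelet markers summed to 476 to 661 TPM in Idh2R172K, 262 to 368 TPM in Tet2KO and 341 to 423 TPM in WT, the order of Ccni. The single genes were split, since of 7 tested 2 were higher (Itga2b and Selp) and 2 lower (Pf4 and Vwf) in Idh2R172K against WT, with a list median of -0.11, and 1 was lower (Vwf) in Tet2KO. Of the 8 stroma and endothelium markers 1 was tested, Pdgfrb, and the sum was 255 to 321 TPM in Idh2R172K, 41.0 to 140 TPM in Tet2KO and 74.2 to 123 TPM in WT. The other markers each averaged under 1 TPM, so this sum is mostly Pdgfrb. Against WT, Pdgfrb was called higher in Idh2R172K (log2 difference 1.64), beside 8.03% of all genes, and was not called in Tet2KO (0.01). The part of these cells in the levels of the 3 genes was not tested. In such sorted but mixed samples fewer cells of a type and less RNA per cell cannot be told apart. The summed B lineage markers were 39.5 to 114 TPM in Idh2R172K, 107 to 125 TPM in Tet2KO and 90.3 to 108 TPM in WT. Of 5 tested, Vpreb1 and Igll1 were higher and Cd79b lower in Idh2R172K against WT (list median 0.75), and 0 passed in Tet2KO. The neutrophil and T and NK marker sums overlapped between all groups. No marker of these lists was at 0 in all libraries.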

How the data were processed

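Total RNA of LSK cells was sequenced in 20 libraries, 4 pools of 2 mice in each of 5 groups. Per the submitters' processing notes the authors used Trim Galore, STAR and featureCounts on mm10. Versions, annotation release and strand setting are not given in the sources used here. The authors deposited TPM values, counts scaled by gene length to 1000000 per library, in 1 table of 46078 gene IDs. Each column was given to a sample from the mutation and the pool number in its name, and the Idh2R140Q columns carry an Idh1 prefix. GENCODE M21 gave symbols for 45143 IDs, coordinates and exon lengths, and promoters came from RefSeq.

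Depth was recovered from TPM times exon length, with 90.0 to 91.1% of values up to 30 reads whole within 0.1 reads. Depths served description only.

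The test was limma 3.58.1 (R 4.3.3) on log2(TPM + 1), which understates changes of low genes, in 1 fit of all 5 groups with an intensity trend, over the 14176 genes averaging 1 TPM or more. Python 3.11.15, pandas 2.3.3, numpy 2.4.6, scipy 1.17.1 and matplotlib 3.10.9 were used for the rest. The scripts were tested on simulated data.

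The 3 genes, the lists and the alternatives were chosen with earlier results of these data known. Named are the 3 genes, Gpx1, Gpx4, Gpx8, Bex2, Bex3, Bex4, Ccng1 and Ccng2, up to 4 passing genes of each list with the smallest p, the 5 genes most like each of the 3 and the passing neighbours among 5 on each side. Others were named after their values were seen, among them Bex6, Tceal8, P4hb and Ly6a.

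Same-numbered libraries deviated together in Idh1R132H minus WT (correlations 0.24, 0.22, 0.18 and 0.49) and in Idh2R140Q minus Idh1R132H (0.21, 0.21, 0.15 and 0.54). They did so in Idh2R140Q minus WT as well (0.097, 0.16, 0.20 and 0.45). The data show this and no label states it. Each comparison with Idh2R172K or Tet2KO held a pair with a negative correlation. In Idh2R172K minus WT the correlations were 0.076, -0.023, 0.14 and 0.40, so the number 4 libraries of these 2 groups deviated together. In Tet2KO minus WT they were -0.081, 0.077, -0.038 and 0.079. Alternatives were other pseudocounts, filters, scalings and fits, a replicate block, and leaving out libraries. A progenitor marker, with the sum that holds it, is not reported here.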

Additional observations from a re-analysis of the deposited data

Results flagged for a closer look

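Over 22 genes and 5 groups, 110 groups of 4 libraries were checked for a library far from the other 3, and 8 were found. Chance alone gives about 1 in 20 groups. Gpx7 in Idh2R172K replicate 4 was at 1.56 TPM, with the other 3 libraries at 2.48 to 2.55 TPM. Ccni in Idh2R140Q replicate 2 was at 167.6 TPM, with the others at 158.5 to 159.8 TPM. Tceal5 in Idh2R172K replicate 3 was at 1.04 TPM, against 0.531 to 0.585 TPM in the others, and Bex3 in WT replicate 4 was at 299.3 TPM, against 248.5 to 257.2 TPM. Sdf2l1 in Tet2KO replicate 2 was at 232.4 TPM, with the others at 181.4 to 189.6 TPM. Ccnjl in Idh2R140Q replicate 3 was at 5.82 TPM, with the others at 7.85 to 8.18 TPM. Ccna2 in Idh1R132H replicate 4 was at 194.7 TPM, with the others at 180.1 to 181.2 TPM. Gpx1 in Idh1R132H replicate 4 was at 2718 TPM, with the others at 3483 to 3615 TPM. Of these 8, 4 are number 4 libraries, which also held the lowest share of Gm23935 in their groups.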

How the results depend on the processing

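Gpx7 and Bex1 kept their direction in Idh2R172K minus WT, in Tet2KO minus WT and between these mutants in every alternative, as did Ccni. The genes were chosen for these directions in the same libraries, so this is a description and no independent support. A pseudocount of 0.1 moved Gpx7 to -2.11 and Bex1 to -2.05 in Idh2R172K minus WT, and to -2.65 and -2.82 in Idh2R172K minus Tet2KO. The values of the 3 genes were the same with the replicate block (Gpx7 in Idh2R172K minus WT -1.76, Bex1 -1.73, Ccni 0.47), and the block changed no call of theirs. It took the 31 opposite genes to 109 and 6, from 30 and 1. Small uncalled differences changed sign, with causes not tested. Gpx7 in Idh2R140Q minus WT was -0.063 with median-of-ratios scaling, -0.12 with quantile scaling, -0.056 with library weights, -0.10 when the number 4 libraries and Tet2KO replicate 2 were omitted, -0.0023 with rescaled TPM, and -0.067 to 0.076 with 1 library left out. Bex1 there was -0.012 and -0.069 with these scalings and -0.047 to 0.23 with 1 library left out. Ccni in Idh2R140Q minus Idh1R132H was -0.0043 with median-of-ratios scaling.

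List genes passing in Idh2R172K minus WT numbered 18, but 34 with library weights, 35 when the number 4 library of every group and Tet2KO replicate 2 were omitted, and 13 to 19 with 1 library left out. In Tet2KO minus WT they numbered 16, but 4 with no filter, 9 at a mean of at least 5 TPM, 0 in the fit of the 2 groups alone, 39 with library weights, and 2 to 15 with 1 library left out. Between the mutants the 26 became 12 in the fit of the 2 groups and 17 to 27 with 1 library left out. Scaling moved the split of all called genes. In Tet2KO minus WT it was 712 higher and 287 lower, against 1130 and 1513 with median-of-ratios scaling and 1051 and 1441 with quantile scaling, and in Idh2R172K minus WT 1138 and 1039, against 1243 and 1532 with median-of-ratios scaling and 1185 and 1474 with quantile scaling. All passing genes ran from 1371 to 4742, from 45 to 5231 and from 1190 to 5273 in Idh2R172K minus WT, Tet2KO minus WT and Idh2R172K minus Tet2KO over the alternatives with all groups complete or several libraries out. The opposite genes were 66 and 42 with quantile scaling, 59 and 17 with rescaled TPM, 244 and 20 with library weights, 177 and 5 when those libraries were omitted, and 1 and 0 in 2-group fits. Of 69 called values of list genes and neighbours, 30 passed in every alternative. Gpx7 in Idh2R172K rested on 24.0 to 44.0 reads per library.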
